A study of Mus musculus with 2 samples.

Results

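The collagen and laminin chains of the mouse adrenal gland were taken as the 55 protein-coding genes whose symbol is Col, a number, a and a number, or Lam, then a, b or c and a digit. They were found by matching the identifiers of the gene tables to GENCODE M21 symbols, and the rule is one of symbols alone. The set holds 44 collagen and 11 laminin genes, out of 21474 protein-coding genes and 43346 mouse gene identifiers. The tissue was whole adrenal gland of adult C57BL/6J mice at 8 weeks of age, by the labels from littermates of both sexes. There was 1 group, with no treatment or altered allele named in the labels, and it was measured in 2 libraries labelled biological replicates 1 and 2. Stranded libraries of poly(A) RNA above 200 nt with added spike-in RNAs were sequenced on an Illumina GAIIx as paired reads of 76 nt. How many animals each library holds is not given in the labels.

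Collagens are secreted proteins built from alpha chains that wind around each other in a helix, and each gene of the family encodes a chain of its own. Collagen IV and the laminins, which join an alpha, a beta and a gamma chain, form the sheet-like basement membranes under capillaries, epithelia, muscle and nerve. The fibrillar collagens assemble into the cable-like fibrils of connective tissue such as an organ's capsule. In the adrenal gland a fibrous capsule encloses the steroid-producing cortex and the catecholamine-producing medulla, and fenestrated capillaries with a basement membrane run between the endocrine cells. Levels below are in TPM, a transcript's share per length scaled to a fixed total in each library. In whole tissue, fewer cells of a type and less RNA per cell cannot be told apart.

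Of the 55 genes, 32 (58.2%) reached 1 TPM in both libraries, against 54.6% of all protein-coding genes. All 55 together summed to 1259 TPM in replicate 1 and 1275 TPM in replicate 2, a share of 0.128% ± 0.00093 of TPM outside the spike-ins (SD, n = 2). Expression was spread very unevenly among them. The 5 genes that reached 100 TPM in both libraries were Col6a1, Lamb2, Col4a1, Col4a2 and Col5a3, 9.09% of the genes, against 7.02% of all protein-coding genes. A further 15 lay between 10 and 100 TPM, and the remaining 35 were lower in at least 1 library. Ranked by mean TPM among protein-coding genes, Col6a1 was number 697 and Col5a3 number 1524.

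**Figure D1:**
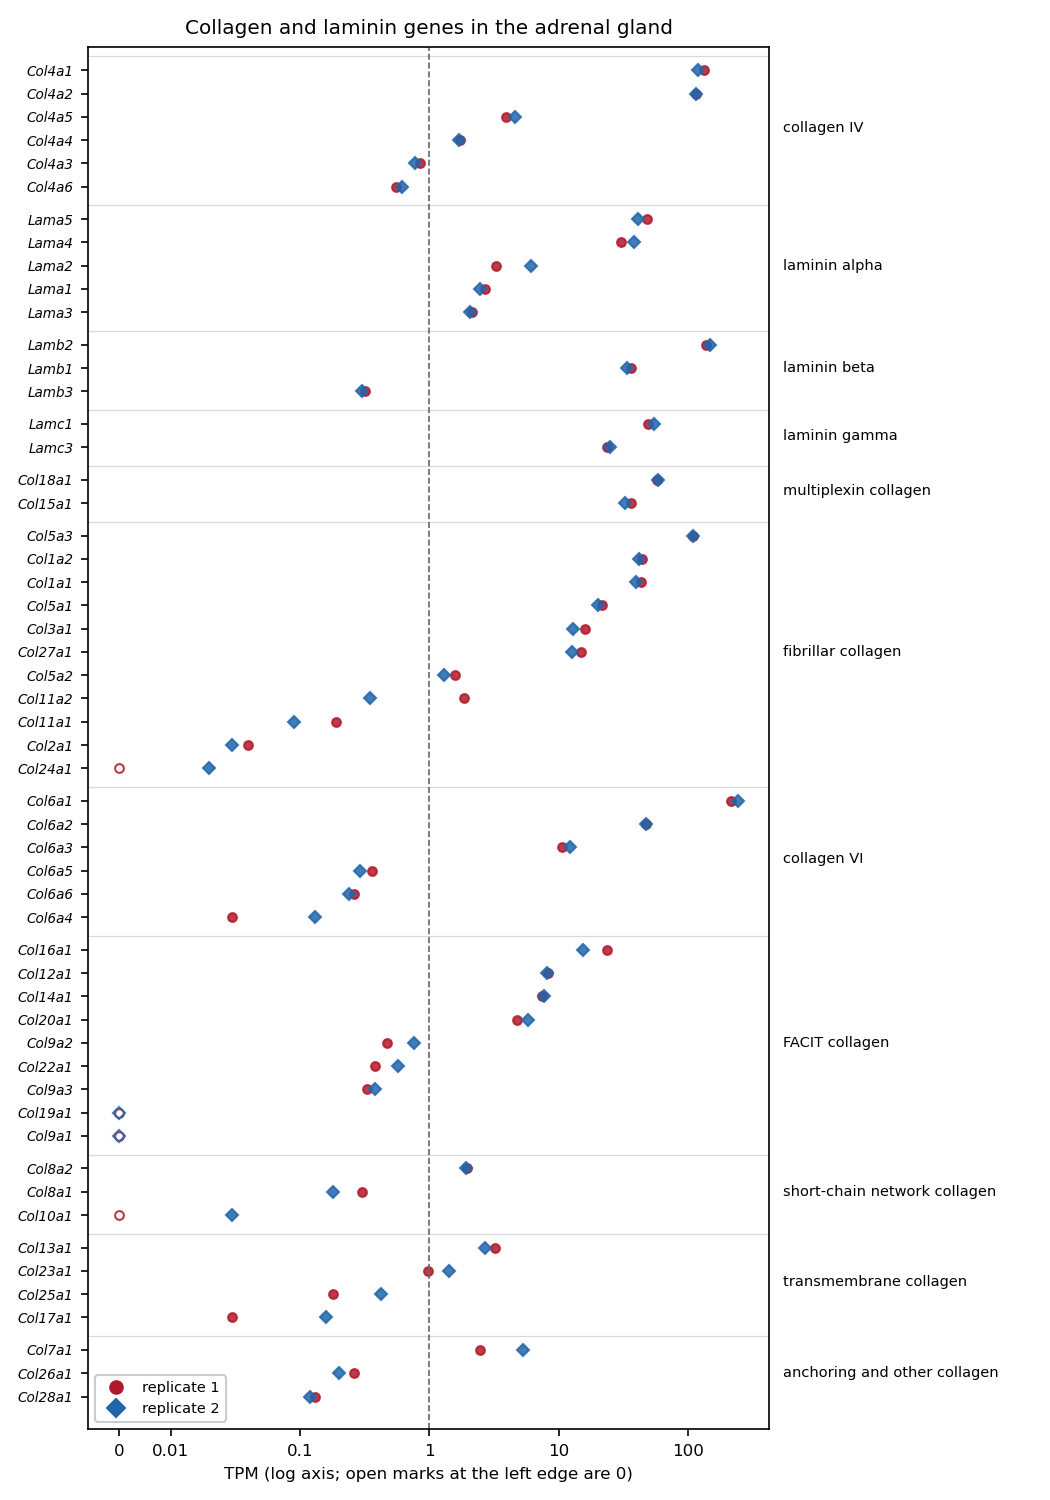
TPM of 54 of the 55 collagen and laminin genes in replicate 1 (circles) and replicate 2 (diamonds) on a log axis, grouped by class, with a dashed line at 1 TPM. The marks of the 2 libraries lie close together for genes above 10 TPM, Col16a1 excepted, and apart for several below 1 TPM, and each class holds genes on both sides of the line except the laminin alpha, laminin gamma and multiplexin classes.

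The chains of basement membranes, namely the 6 collagen IV and 11 laminin genes, summed to 586 TPM in replicate 1 and 593 TPM in replicate 2. The 11 fibrillar collagen genes summed to 252 TPM in replicate 1 and 238 TPM in replicate 2. Basement membrane chains therefore held 2.33 times the TPM of fibrillar chains in replicate 1 and 2.49 times in replicate 2, a ratio of 2.41 ± 0.114 (SD, n = 2). With 2 libraries and 1 residual degree of freedom this ratio was not tested. Of the basement membrane chains 13 of 17 reached 1 TPM in both libraries, and of the fibrillar chains 7 of 11.

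The size of the ratio turned on what was counted in each group. Collagen IV alone summed to 255 TPM in replicate 1 and 242 TPM in replicate 2, so that it held 1.01 times the fibrillar TPM, averaged over the libraries. The laminins, at 332 TPM in replicate 1 and at 351 TPM in replicate 2, made up the rest. On the fibrillar side Col5a3 supplied 44.5% of the summed mean TPM, and without it the ratio was 4.35 ± 0.343. Set against each other by the median chain, the order turned, since many laminin and collagen IV genes were low. The median basement membrane chain stood at 3.92 TPM in replicate 1 and at 6.12 TPM in replicate 2. The median fibrillar chain stood at 14.8 TPM in replicate 1 and at 12.7 TPM in replicate 2. The excess of basement membrane TPM was thus an excess of the sum, carried by a few abundant chains.

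**Figure D2:**
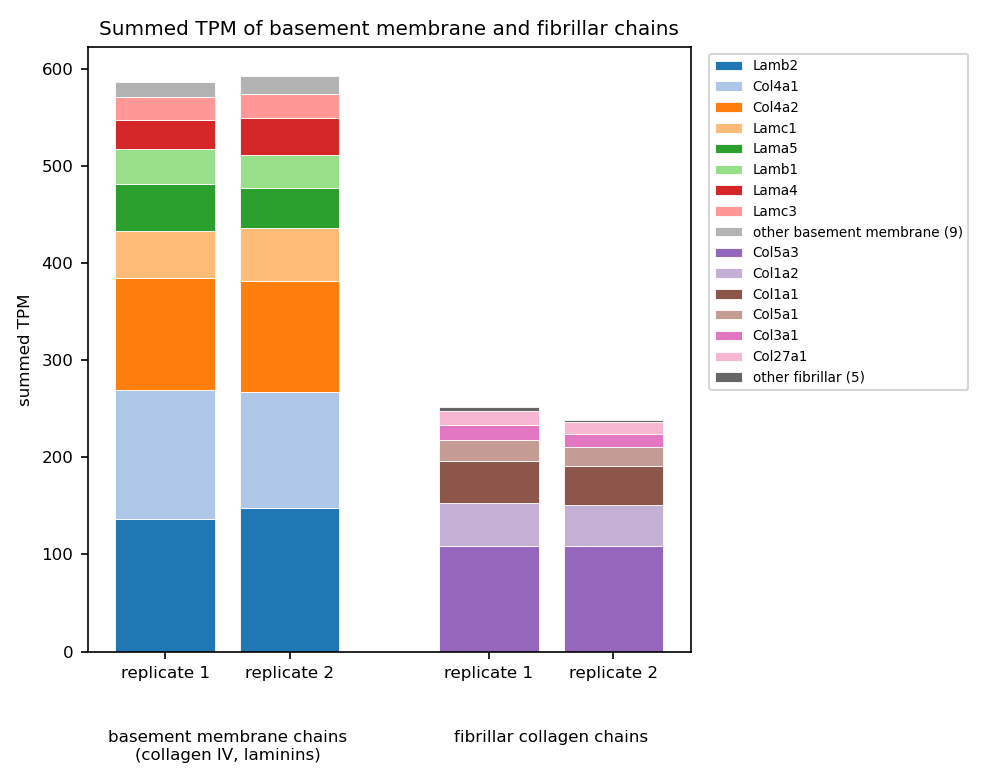
Summed TPM of the 17 basement membrane chains (left pair of bars) and the 11 fibrillar chains (right pair) in each library, with segments for the leading chains and grey for the rest. The basement membrane bars reach 586 and 593 TPM and the fibrillar bars 252 and 238 TPM, with Col5a3 as the largest fibrillar segment in both libraries.

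Collagen IV forms the network that gives a basement membrane its strength, and 3 pairs of chain genes lie head to head on 3 chromosomes. The common pair was by far the most abundant. Col4a1 (ENSMUSG00000031502.9, mm10 chromosome 8, 11198423 to 11312826, minus strand) had 133 TPM in replicate 1 and 120 TPM in replicate 2. Col4a2 (ENSMUSG00000031503.9, chromosome 8, 11312805 to 11449287, plus strand) had 115 TPM in both libraries. Their protein is a trimer with more alpha1 than alpha2 chains. At the RNA level Col4a1 exceeded Col4a2 1.16-fold in replicate 1 and 1.04-fold in replicate 2.

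The annotated first exons of this pair overlap by 22 bases, so both genes start inside the same short stretch. It is printed here because the shared start is the feature that sets this pair apart from the other collagen IV pairs. The window of 30 bases at chr8:11312801-11312830 is given on the plus strand from RefSeq on GRCm38.p6, and the capitals mark a GC box, GGGCGG.
Col4a1 and Col4a2: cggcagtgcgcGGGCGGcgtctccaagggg

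The other pairs were much lower and unequal. Col4a4 had 1.71 TPM in replicate 1 and 1.68 TPM in replicate 2, while Col4a3 had 0.85 TPM in replicate 1 and 0.77 TPM in replicate 2. These chains join Col4a5 in the specialised network known from the kidney glomerulus, where their loss causes Alport syndrome in humans. Col4a5 had 3.92 TPM in replicate 1 and 4.62 TPM in replicate 2, against 0.55 TPM and 0.62 TPM for its neighbour Col4a6. The partners of a pair thus differed in level 2.01-fold and 2.18-fold for Col4a4 over Col4a3, and 7.13-fold and 7.45-fold for Col4a5 over Col4a6, in replicates 1 and 2. By TPM Col4a1 exceeded Col4a5 33.9-fold in replicate 1 and 25.9-fold in replicate 2. With counts per kb of the longest coding transcript, Col4a4 exceeded Col4a3 3.12-fold in replicate 1 and 3.64-fold in replicate 2. On that measure Col4a5 exceeded Col4a6 4.94-fold and 5.21-fold, and Col4a1 exceeded Col4a5 48.7-fold and 36.7-fold, in replicates 1 and 2. A coding transcript of 3511 nt held 62.3% of Col4a5 TPM, averaged over the libraries, while the longest one has 6536 nt.

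The starts of Col4a4 and Col4a3 are separated by 71 bases on chromosome 1, and those of Col4a6 and Col4a5 by 1308 bases on the X chromosome. All 71 intergenic bases of the first of these pairs, chr1:82586850-82586920 on the plus strand of GRCm38.p6, follow from RefSeq, to set beside the shared start above. On either strand they hold none of the 3 motifs searched, which were the CCAAT box, the GC box written as GGGCGG, and the TATA box written as TATAAA, so there are no capitals.
Col4a4 and Col4a3: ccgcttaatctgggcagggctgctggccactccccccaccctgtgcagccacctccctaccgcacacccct

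Laminin beta and gamma chains were led by 1 or 2 genes each. Lamb2 (ENSMUSG00000052911.5, chromosome 9, 108479736 to 108490530, plus strand), the beta2 chain known from the basement membranes of vessels, glomeruli and neuromuscular junctions, had 136 TPM in replicate 1 and 148 TPM in replicate 2. Lamb1, the widespread beta1 chain, had 36.0 TPM in replicate 1 and 33.6 TPM in replicate 2. Lamb2 exceeded Lamb1 3.79-fold in replicate 1 and 4.40-fold in replicate 2. Lamb3, a chain of the epidermal laminin, stayed at 0.32 TPM in replicate 1 and at 0.30 TPM in replicate 2. The common gamma1 chain Lamc1 (chromosome 1, 153218922 to 153332786, minus strand) had 48.6 TPM in replicate 1 and 54.4 TPM in replicate 2. Lamc3, a gamma chain with a narrower known range, was also abundant at 23.5 TPM in replicate 1 and at 24.8 TPM in replicate 2.

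All 5 laminin alpha chains, which carry the sites for cell receptors, reached 1 TPM in both libraries. Lama5, the alpha chain of mature epithelial and vascular basement membranes, had 48.4 TPM in replicate 1 and 40.9 TPM in replicate 2. Lama4, the alpha chain typical of endothelium, fat and muscle, had 30.3 TPM in replicate 1 and 38.3 TPM in replicate 2. These were the abundant alpha chains, and the other 3 lay below 7 TPM. Lama2, the alpha chain of muscle and nerve sheaths whose loss causes muscular dystrophy, had 3.29 TPM in replicate 1 and 6.12 TPM in replicate 2. Lama1, known mainly from the embryo, had 2.67 TPM in replicate 1 and 2.44 TPM in replicate 2. Lama3, the epidermal alpha chain, had 2.12 TPM in replicate 1 and 2.06 TPM in replicate 2. Lama3 was therefore above 1 TPM while the epidermal beta chain Lamb3 was below 1 TPM.

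The multiplexins, collagens XV and XVIII, sit at the face of basement membranes toward the tissue and carry endostatin-like fragments. Col18a1 had 57.1 TPM in replicate 1 and 58.2 TPM in replicate 2, and Col15a1 had 36.1 TPM in replicate 1 and 32.3 TPM in replicate 2. Both are therefore of the order of the abundant laminin chains. Counting them with the basement membrane chains gave a ratio to the fibrillar chains of 2.79 ± 0.121.

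The most abundant fibrillar chain was not one of collagen I or III. Col5a3 (ENSMUSG00000004098.7, mm10 chromosome 9, 20770050 to 20815067, minus strand), the alpha3 chain of collagen V, had 109 TPM in both libraries. Col1a1, the major chain of the fibrils of skin, bone and tendon, had 43.2 TPM in replicate 1 and 39.8 TPM in replicate 2. The partner chain Col1a2 had 44.0 TPM in replicate 1 and 41.9 TPM in replicate 2. Col5a3 exceeded Col1a1 2.52-fold in replicate 1 and 2.73-fold in replicate 2. Col1a1 and Col1a2 were level with each other, at 0.965 ± 0.0211 for Col1a1 over Col1a2.

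Col5a3 also stood far above the other chains of its own collagen. Col5a1, which is needed to start fibrils, had 21.4 TPM in replicate 1 and 20 TPM in replicate 2. Col5a2 had 1.59 TPM in replicate 1 and 1.29 TPM in replicate 2. The steps between the chains were 5.09-fold and 5.44-fold for Col5a3 over Col5a1, and 13.5-fold and 15.5-fold for Col5a1 over Col5a2, in replicates 1 and 2. The common collagen V trimer holds alpha1 and alpha2 chains, so the usual alpha2 partner was the scarcest of the collagen V genes at the RNA level.

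Col3a1 (ENSMUSG00000026043.14, chromosome 1, 45311538 to 45349706, plus strand), the chain of the fine reticular fibres of soft organs and vessel walls, had 15.9 TPM in replicate 1 and 12.9 TPM in replicate 2. Col1a1 exceeded it 2.72-fold in replicate 1 and 3.08-fold in replicate 2. The neighbouring gene is Col5a2, 24.6 kb away in tail-to-tail orientation, and Col3a1 exceeded Col5a2 9.97-fold in replicate 1 and 10.03-fold in replicate 2. Col27a1, a fibrillar chain known from cartilage, had 14.8 TPM in replicate 1 and 12.7 TPM in replicate 2, of which coding transcripts at least 50% as long as the longest one held 7.64 TPM and 4.83 TPM. The cartilage chains of collagens II and XI were low. Col11a2 had 1.84 TPM in replicate 1 and 0.35 TPM in replicate 2, and Col11a1 had 0.19 TPM in replicate 1 and 0.09 TPM in replicate 2. Col2a1, the main collagen of cartilage, had 6 counts in replicate 1 and 5 counts in replicate 2. Col24a1 had 1 count in replicate 1 and 6 counts in replicate 2.

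The 250 bases before the annotated starts of the highest fibrillar gene, Col5a3, and of Col3a1 are printed to show a promoter rich in G and C beside one that is not. They are taken from RefSeq on GRCm38.p6, chr9:20815068-20815317 on the minus strand and chr1:45311288-45311537 on the plus strand, both written 5′ to 3′ toward the gene. Capitals mark each match on either strand to the same 3 motifs. The Col5a3 stretch, with 62.8% G and C, has a CCAAT match that begins 122 bases before the start and GC boxes, here as the reverse complement, that begin 63 and 41 bases before it. The Col3a1 stretch, with 35.2% G and C, has a TATAAA match 117 bases before the start and none of the other motifs.
Col5a3: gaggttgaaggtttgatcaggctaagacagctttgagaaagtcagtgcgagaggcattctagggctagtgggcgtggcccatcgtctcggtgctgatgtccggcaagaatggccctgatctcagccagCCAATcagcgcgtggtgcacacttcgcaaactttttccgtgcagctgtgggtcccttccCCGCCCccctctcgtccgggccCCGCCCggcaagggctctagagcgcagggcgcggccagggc
Col3a1: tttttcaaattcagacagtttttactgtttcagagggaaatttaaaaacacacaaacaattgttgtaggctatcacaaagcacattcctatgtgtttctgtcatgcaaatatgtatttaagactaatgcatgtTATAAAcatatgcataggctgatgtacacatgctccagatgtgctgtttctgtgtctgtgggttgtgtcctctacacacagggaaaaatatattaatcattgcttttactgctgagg

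Across promoter windows from 250 bases before to 50 bases after a RefSeq start, 40 of the 55 genes had a window among 27025 genes. The GC box GGGCGG was found on either strand in 25 of the 40 genes (62.5%), against 38.2% of all genes with a window. CCAAT was found in 14 of 40 (35%), against 41.1% of all, and TATAAA in 5 of 40 (12.5%), against 15.7%. Of 10 basement membrane genes 7 held the GC box, 4 held CCAAT and 0 held TATAAA. Of 8 fibrillar genes 6 held the GC box, 3 held CCAAT and 2 held TATAAA. These are matches of letters, matches that share bases were each counted, and windows were not matched on base composition. The background was not limited to protein-coding genes, as the 40 are, so its shares are not those of like genes.

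Collagen VI makes beaded filaments that link basement membranes to the surrounding matrix, and it held the single most abundant gene of the whole set. Col6a1 (ENSMUSG00000001119.7, chromosome 10, 76708792 to 76726168, minus strand) had 215 TPM in replicate 1 and 243 TPM in replicate 2. Col6a2, 85.2 kb away on the same strand, had 47.2 TPM in replicate 1 and 47.3 TPM in replicate 2. Col6a3 had 10.7 TPM in replicate 1 and 12.2 TPM in replicate 2. The classical monomer contains these alpha1, alpha2 and alpha3 chains together. Their RNAs fell in steps, with Col6a1 4.55-fold and 5.13-fold above Col6a2 and 20.1-fold and 19.9-fold above Col6a3 in replicates 1 and 2. The clustered genes Col6a4, Col6a5 and Col6a6 on chromosome 9, which encode chains related to alpha3, were all below 0.4 TPM.

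Collagens that decorate fibrils or join cells to matrix were lower. Col16a1 had 23.5 TPM in replicate 1 and 15.5 TPM in replicate 2, Col12a1 had 8.25 TPM and 8.18 TPM, and Col14a1 had 7.48 TPM and 7.75 TPM. These belong to the FACIT collagens, which attach to the surface of fibrils. Among the 9 FACIT genes, 4 reached 1 TPM in both libraries, the last of them Col20a1 at 4.72 TPM in replicate 1 and at 5.82 TPM in replicate 2. Col9a1 and Col19a1 had 0 counts in both libraries. A count of 0 allows up to 3 counts, or 0.0441 TPM in replicate 1 and 0.0411 TPM in replicate 2 for Col9a1, and 0.0208 TPM and 0.0194 TPM for Col19a1. Col10a1, a collagen of growing cartilage, had 0 counts in replicate 1 and 3 counts in replicate 2. The anchoring fibril collagen Col7a1 had 2.44 TPM in replicate 1 and 5.32 TPM in replicate 2. Of the 4 transmembrane collagens, Col13a1 alone passed 1 TPM in both libraries, at 3.24 TPM in replicate 1 and at 2.68 TPM in replicate 2.

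Several of these gene levels rested on short transcripts. A gene's TPM is the sum over its annotated transcripts, and because TPM is divided by length, a few reads assigned to a short transcript weigh heavily. For Lama4, a transcript of 511 nt with a retained intron took 65.9% of the gene's TPM in replicate 1 and 68.1% in replicate 2, from 9.41% and 10.6% of its counts. Full-length coding transcripts, taken as protein-coding transcripts at least 50% as long as the gene's longest one, gave Lama4 10.3 TPM in replicate 1 and 12.1 TPM in replicate 2. On that measure Lama5 exceeded Lama4 2.97-fold in replicate 1 and 1.99-fold in replicate 2, against 1.60-fold and 1.07-fold for the whole genes. Lama2 had 1.67 TPM in replicate 1 and 2.49 TPM in replicate 2, the rest being in transcripts with a retained intron. It thus lay below Lama1 (2.67 TPM) and Lama3 (2.12 TPM) in replicate 1. In replicate 2 it lay above them, at 2.44 TPM for Lama1 and 2.06 TPM for Lama3.

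The same measure moved other laminins and left Col4a1, Col4a2, Col1a1, Col1a2 and Col5a3 almost where they were. For the low collagen IV pair on chromosome 1, Col4a4 over Col4a3 was 3.17 in replicate 1 and 3.73 in replicate 2 in full-length transcripts. Lamb2 had 89.6 TPM in full-length transcripts in replicate 1 and 105 TPM in replicate 2. On this measure it stood below Col4a1, Col4a2 and Col5a3 in both libraries instead of above them. It exceeded Lamb1 2.52-fold in replicate 1 and 3.23-fold in replicate 2, less than for the whole genes. Lamc1 had 29.98 TPM in replicate 1 and 31.1 TPM in replicate 2, which brought it to 1.26 ± 0.0175 times Lamc3. For Col4a1, Col4a2, Col1a1, Col3a1, Col5a1, Col5a3 and Col6a1, over 99% of TPM was in full-length transcripts in both libraries. Over the 32 detected genes, 21 had more than 90% of their TPM in full-length transcripts in both libraries and 10 had less than 75% in both. The basement membrane chains then summed to 480 TPM in replicate 1 and 478 TPM in replicate 2, against 241 TPM and 227 TPM for the fibrillar chains, a ratio of 2.05 ± 0.0758. Within them collagen IV summed to 254 TPM and 241 TPM in replicates 1 and 2. Laminin alpha chains summed to 47.5 TPM and 43.3 TPM, beta chains to 125 TPM and 137 TPM, and gamma chains to 53.5 TPM and 56.0 TPM. On this measure the laminins together thus stood below collagen IV instead of above it.

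Among the FACIT collagens 3 genes were lowered strongly, while Col20a1 had all of its TPM in full-length transcripts. Col16a1 had 0.56 TPM in full-length transcripts in replicate 1 and 1.16 TPM in replicate 2, which is 2.38% and 7.48% of its gene TPM. For this gene the measure also leaves out long transcripts that are not annotated as coding. A processed transcript of 4574 nt held 48.8% and 47.1% of its counts in replicates 1 and 2. One of 5138 nt annotated for nonsense-mediated decay held 26.5% and 26.9%, while the longest coding transcript has 5206 nt. Col12a1 had 0.70 TPM in replicate 1 and 1.07 TPM in replicate 2. Col14a1 had 1.39 TPM in replicate 1 and 1.04 TPM in replicate 2. With these values 30 of the 55 genes instead of 32 reached 1 TPM in both libraries, the genes lost being Col16a1 and Col12a1. Col7a1 shows how the libraries can differ in TPM with equal counts. It had 413 counts in replicate 1 and 408 counts in replicate 2, but 51.2% of its TPM was in the full-length transcript in replicate 1 and 19.9% in replicate 2.

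**Figure D3:**
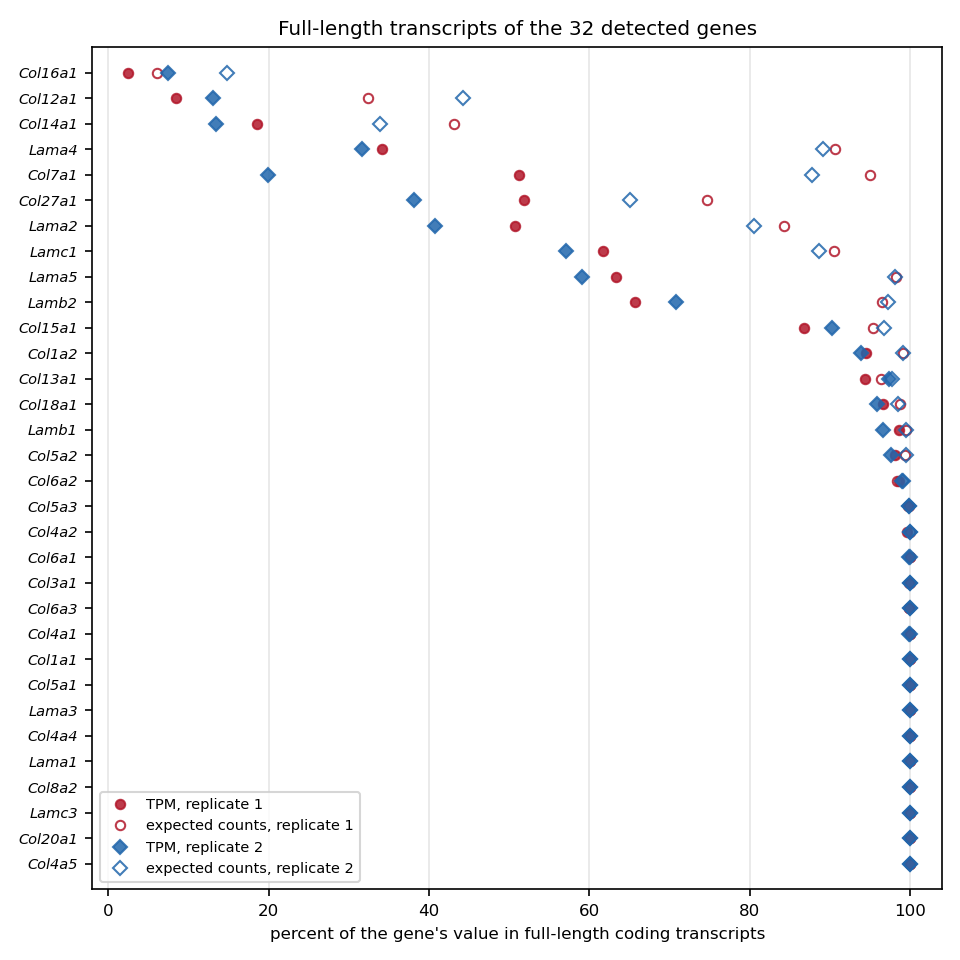
Percent of each detected gene's TPM (filled marks) and expected counts (open marks) that was assigned to full-length coding transcripts in replicate 1 (circles) and replicate 2 (diamonds), for 32 genes. Col16a1, Col12a1 and Col14a1 lie below 20% by TPM in both libraries, while for Lama4, Lama5 and Lamb2 the counts lie far to the right of the TPM.

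Most of the genes had 1 leading transcript. Of the 31 detected genes with more than 1 transcript, 29 had the same leading transcript in both libraries and 15 gave it over 90% of TPM in both. The median share of the leading transcript was 90.3% ± 1.78 (SD, n = 2). For Col12a1, Col14a1, Col16a1 and Lama4 the leading transcript was not full-length in either library. For Col7a1 and Lama2 a full-length transcript led in replicate 1 and a shorter one in replicate 2. How reads are split between overlapping transcripts is an estimate of the authors' processing, and its error is not known here.

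Genes that make, process and bind these chains were followed in 6 lists. All 14 genes of a list of other basement membrane proteins were detected, that is, reached 1 TPM in both libraries. The collagen-binding glycoprotein Sparc led them with 5036 TPM in replicate 1 and 6414 TPM in replicate 2, followed by Tinagl1 at 313 TPM and 341 TPM and Smoc1 at 231 TPM and 303 TPM. Hspg2, the gene of the basement membrane proteoglycan perlecan, had 122 TPM in replicate 1 and 125 TPM in replicate 2. The lowest of the list was Egflam at 7.01 TPM in replicate 1 and at 5.58 TPM in replicate 2.

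Of 18 genes for collagen synthesis and folding, 17 were detected, led by the prolyl hydroxylation partner Crtap at 498 TPM in replicate 1 and at 402 TPM in replicate 2. Serpinh1, the collagen chaperone HSP47, had 256 TPM in both libraries, and the galactosyltransferase Colgalt1 had 148 TPM in replicate 1 and 149 TPM in replicate 2. P4ha3, a prolyl hydroxylase subunit, was lowest at 0.25 TPM in replicate 1 and at 0.51 TPM in replicate 2. Of 12 genes for procollagen processing and cross-linking, 8 were detected. The procollagen proteinase enhancer Pcolce had 1457 TPM in replicate 1 and 1825 TPM in replicate 2, followed by the lysyl oxidase Loxl1 at 81.4 TPM and 72.4 TPM and the C-proteinase Bmp1 at 44.1 TPM and 30.1 TPM. Tll1 and Pcolce2 were lowest, each below 0.4 TPM.

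Receptor genes summed to 361 TPM in replicate 1 and 369 TPM in replicate 2. Among 14 collagen and laminin receptor genes 13 were detected, led by the laminin alpha5 receptor Bcam with 109 TPM in replicate 1 and 102 TPM in replicate 2. Dystroglycan, Dag1, had 59.7 TPM in replicate 1 and 85.9 TPM in replicate 2, and the collagen receptor kinase Ddr1 had 61.9 TPM and 57.5 TPM. Itga2, a collagen-binding integrin chain, was lowest at 0.14 TPM in replicate 1 and at 0.09 TPM in replicate 2. Of 12 fibril-associated proteoglycans and glycoproteins 11 were detected, led by Bgn at 198 TPM in replicate 1 and at 249 TPM in replicate 2, Fn1 at 32.5 TPM and 43.8 TPM and Prelp at 30.7 TPM and 44.0 TPM. Aspn was lowest at 0.05 TPM in replicate 1 and at 0.09 TPM in replicate 2. Of 14 matrix degradation genes 9 were detected, led by the protease inhibitor Timp3 at 608 TPM in replicate 1 and at 586 TPM in replicate 2, the membrane protease Mmp14 at 112 TPM and 120 TPM and the inhibitor Timp2 at 126 TPM and 78.8 TPM. Mmp8 was lowest, at 0.01 TPM in replicate 1 and listed at 0 in replicate 2. The TPM of these genes was not split by transcript here.

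The libraries held 47615328 counts in mouse genes in replicate 1 and 52890686 in replicate 2, and they differed by far more than counting noise, with a chi-square of 102.8 per tested gene and 35.9 per tested collagen or laminin gene. Spike-ins took 0.656% of counts in replicate 1 and 0.486% in replicate 2, and scaling by them moved the median log2 ratio of all genes by -0.43. Marker lists of 8 genes each were summed in both libraries. Adipocyte markers summed to 15512 TPM in replicate 1 and 6959 TPM in replicate 2, with a median log2 ratio of 0.88. Steroidogenic cortex markers summed to 25049 TPM in replicate 1 and 33475 TPM in replicate 2, with a median of -0.46. Fibroblast and capsule markers summed to 1078 TPM in replicate 1 and 847 TPM in replicate 2, and endothelial markers to 1320 TPM and 1112 TPM. Much of each sum came from 1 gene. In replicates 1 and 2, Cfd had 9884 TPM and 3984 TPM of the adipocyte sum. Cyp21a1 had 14483 TPM and 19341 TPM of the cortex sum. Gsn had 802 TPM and 593 TPM of the fibroblast and capsule sum, and Plvap 690 TPM and 595 TPM of the endothelial sum. All 8 markers of each of these 4 lists were detected, so the labelled tissue had its defining cortex genes, together with fat. The other lists summed to 3941 TPM in replicate 1 and 3638 TPM in replicate 2 for chromaffin cells, 470 TPM and 441 TPM for macrophages, 142 TPM and 158 TPM for pericytes and smooth muscle, 28.7 TPM and 24.4 TPM for mesothelium and epithelium, and 21.9 TPM and 14.2 TPM for Schwann cells and glia. Markers past the threshold used below included Cfd, Ucp1, Chgb and Cnn1, each higher in replicate 1. Other members of their lists were lower in replicate 1. Among chromaffin markers Chgb had a log2 ratio of 1.03 and Pnmt one of -0.60, with a list median of 0.019. Among pericyte and smooth muscle markers Cnn1 had 1.18 and Tagln -0.38, with a list median of 0.27. Among adipocyte markers Lep had -0.56. The female-specific Xist had 5.70 TPM in replicate 1 and 12.9 TPM in replicate 2, and the Y-linked Ddx3y had 32 counts in replicate 1 and 0 counts in replicate 2. Replicate 2 thus had no Ddx3y count to mark male tissue, though the labels name littermates of both sexes. The part of sex in differences between the libraries was not tested.

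Replicate 1 was compared with replicate 2 by a two-sided exact binomial test on rounded counts over 15824 genes, and genes passed at a Benjamini-Hochberg adjusted p under 0.05 with at least a 2-fold difference. The test sets one library against the other and covers counting error only, so it says nothing of conditions. Of the 48 collagen and laminin genes whose counts summed to 20 or more, 3 passed (6.25%), against 6.92% of all genes tested. They were 2 higher in replicate 1, where 4.35% of all genes tested were, and 1 higher in replicate 2, where 2.57% of all genes tested were. The share among the chains was thus near the background. With no minimum fold, 28 of the 48 (58.3%) had an adjusted p under 0.05, and so did 58.3% of all genes. The median size of the log2 ratio, regardless of its sign, was 0.18 for the chains and 0.26 for all genes.

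The 3 genes were of low level. Col11a2 had 139 counts in replicate 1 and 70 counts in replicate 2, a log2 ratio of 1.13 (95% interval 0.71 to 1.57, adjusted p = 1.2e-07 by the exact binomial test). Col11a1, whose chain joins that of Col11a2 in cartilage collagen XI, had 50 counts in replicate 1 and 22 counts in replicate 2, a log2 ratio of 1.31 (0.58 to 2.13, adjusted p = 0.00053 by the exact binomial test). Both were higher in replicate 1, and both fell under 2-fold when the libraries were scaled by spike-ins. Col6a4 had 8 counts in replicate 1 and 33 counts in replicate 2, a log2 ratio of -1.84 (-3.22 to -0.75, adjusted p = 0.00064 by the exact binomial test), and it was lower in replicate 1. With an assumed coefficient of variation of 0.2 between animals in edgeR's exact test, 0 of the 48 genes passed. Over all genes tested 1.54% did, so 0 of 48 is near the background. With no minimum fold 28 of the 48 had an adjusted p under 0.05 in the binomial test, again near the share of all genes. The 7 genes below the count filter included Col2a1, Col9a1, Col10a1, Col17a1, Col19a1 and Col24a1.

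Of the basement membrane chains 0 of 16 tested passed, beside 6.92% of all genes tested. At that share 16 genes are too few for a count of 0 to set these chains apart. Without the minimum fold 9 of 16 had an adjusted p under 0.05 by the exact binomial test, beside 58.3% of all genes. Of the 16 tested, 9 had a ratio above 0 and 7 below 0 with TMM scaling and 0 of 16 had one above 0 with spike-in scaling, with a median log2 ratio of 0.062 with TMM. The lowest was Lama2 at -0.59 and the highest Lama5 at 0.39. Fibrillar chains lay higher by their median. Of the 9 tested, 2 passed, namely Col11a1 and Col11a2, both of low level, beside 6.92% of all genes tested. Again 9 genes are too few for this count to set the class apart. Without the minimum fold 9 of 9 had an adjusted p under 0.05 by the exact binomial test, beside 58.3% of all genes. All 9 fibrillar chains tested had a log2 ratio above 0 with TMM scaling and 3 of 9 with spike-in scaling, with a median of 0.34 with TMM, against 49.5% of all genes above 0 with TMM and 16.6% with spike-in scaling. Over fibrillar chains at 1 TPM or more in both libraries the median was 0.17 with TMM, and over all 9 it was -0.088 with spike-in scaling. The ratios of the abundant fibrillar chains were all under 2-fold. They were 0.051 for Col5a3, 0.13 for Col1a2, 0.17 for Col1a1 and 0.15 for Col5a1. Col3a1 at 0.34 and Col27a1 at 0.51 lay above 0.26, the median size of the log2 ratio over all genes. Several marker lists also had a median log2 ratio above 0 with TMM scaling. With TMM and then with spike-in scaling, the medians were 0.88 and 0.45 for adipocyte markers, 0.71 and 0.28 for mesothelial and epithelial markers, and 0.48 and 0.048 for Schwann and glial markers. They were 0.36 and -0.065 for fibroblast and capsule markers, 0.27 and -0.16 for pericyte and smooth muscle markers, and 0.26 and -0.17 for endothelial markers. Of these 6 lists only the mesothelial and epithelial one held a marker listed at 0 in a library, Epcam in replicate 2, and the part of any list in the fibrillar ratios was not tested.

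**Figure D4:**
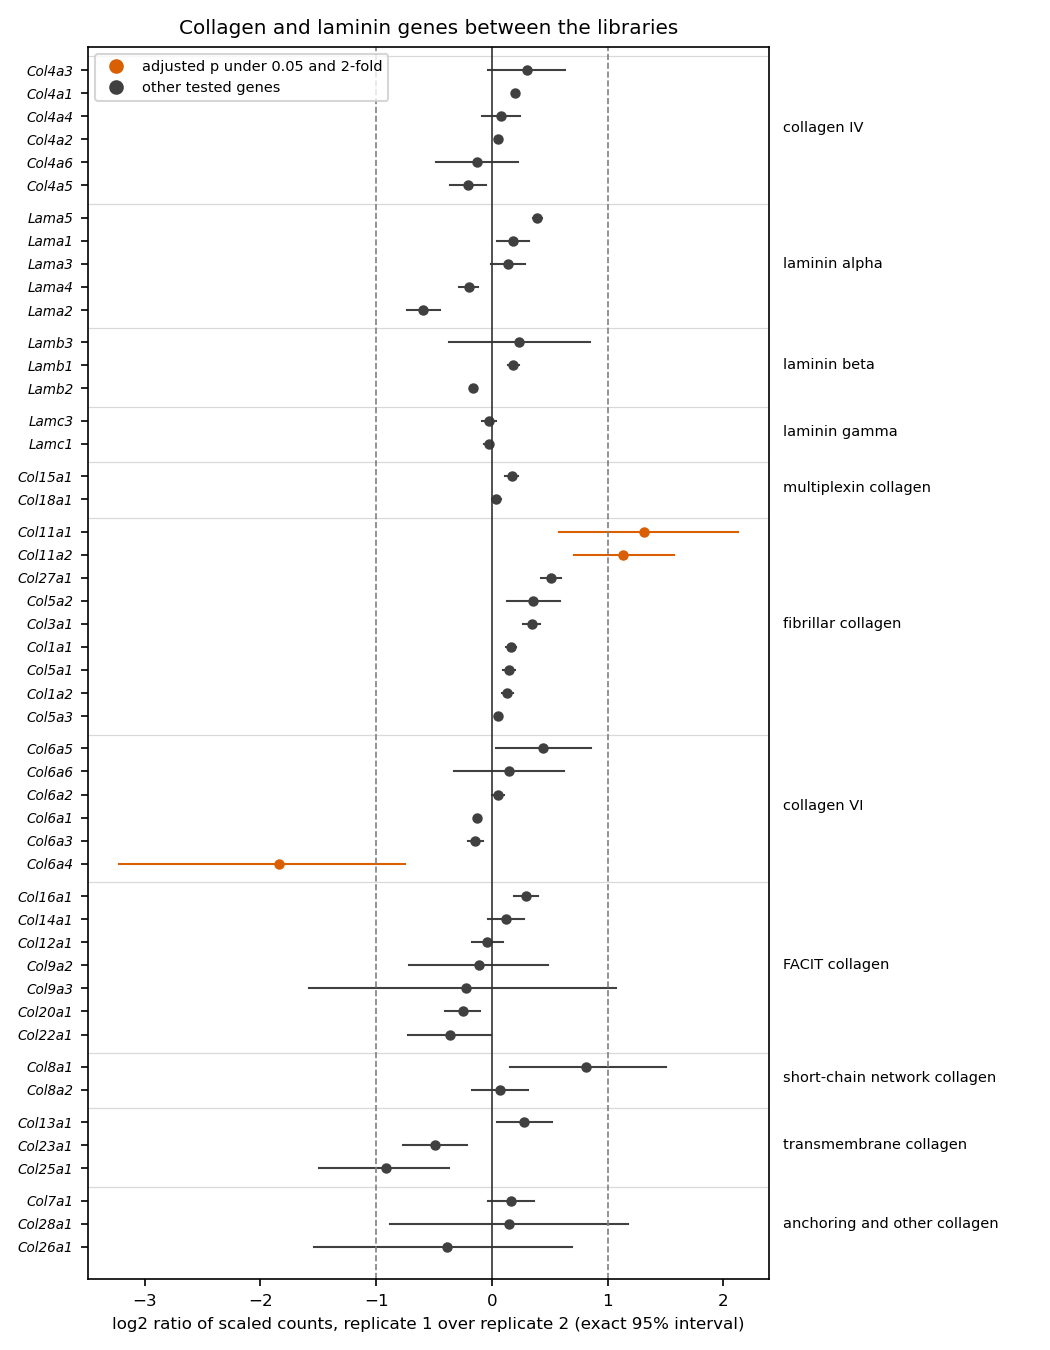
Log2 ratio of scaled counts, replicate 1 over replicate 2, with its exact 95% interval for the 48 tested genes grouped by class. Orange marks the 3 genes past the threshold, dashed lines mark 2-fold, and all 9 fibrillar chains lie to the right of 0 with the TMM scaling shown, while 3 of 9 do with spike-in scaling.

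Among 81 tested genes of the 6 lists of matrix partners, 2 passed the same threshold (2.47%), against 6.92% of all genes tested. Both encode matrix proteases and were higher in replicate 1. Mmp9 had 3.41 TPM in replicate 1 and 1.63 TPM in replicate 2, with a log2 ratio of 1.06. Mmp13 had 0.32 TPM in replicate 1 and 0.12 TPM in replicate 2, with a log2 ratio of 1.45. With spike-in scaling the log2 ratio of Mmp9 was 0.63, under 2-fold, and neither gene passed with the assumed coefficient of variation of 0.2. The median log2 ratio of these 81 genes was 0.041.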

How the data were processed

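Poly(A) RNA of adrenal glands was measured in 2 libraries of 1 group. The replicate numbers come from the labels. Per the file headers, the deposited gene and transcript tables give an expected count, TPM and FPKM with posterior means of count and TPM. The authors' expected count is not normalized and is fractional where reads are shared between genes, as for 10 of the 55 genes. The authors' TPM is scaled by length to a fixed total, and the authors' FPKM by length and fragments. The deposited readme files name mm10 and annotation M4. The aligner and the quantifier were not given in the sources used here.

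Symbols, gene types and positions came from GENCODE M21 on the same assembly, which matched 42462 of 43346 identifiers. The members follow a rule on symbols, but this gene family and the lists were chosen with earlier results of these data known. In each class, genes that reached 5 TPM in both libraries, those past the threshold and those at 0 are named. Of each partner list the 3 highest by mean TPM, the lowest and those past the threshold are named, and Hspg2 and Pcolce2, which fall outside this, were chosen after their values were seen. Markers are given as list sums, by name where past the threshold, and Pnmt, Tagln and Lep are named as members that went the other way. Cyp21a1, Gsn and Plvap are named as the highest of their lists. Values of 1 chain gene and 1 marker gene are not reported here by name.

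Levels are given per library or as mean with SD, without a test. For the comparison of libraries, expected counts were rounded and scaled with TMM factors of 1.00 and 0.999 (edgeR 4.0.16, R 4.3.3). A gene needed a summed count of 20, and log2 ratios used a prior count of 0.5. The exact binomial test was run in scipy 1.17.1, with exact (Clopper-Pearson) 95% intervals, which cover counting error only. The test was checked on simulated counts that varied by counting error only, so the check does not bear on variation between animals. Alternatives were other scalings (DESeq2 1.42.0 size factors, total count, spike-ins), filters, folds and values per gene. Library sizes exclude spike-ins and phiX174. Tables on mm9 were not used here.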

Additional observations from a re-analysis of the deposited data

How the results depend on the processing

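The ratio of basement membrane to fibrillar TPM, 2.41, was 2.33 and 2.49 when each library was left out in turn. It was 2.21 with counts not divided by length, 2.79 with collagens XV and XVIII added, 1.01 with collagen IV alone and 0.375 as a ratio of medians, where the order turned. Alternatives chosen after seeing the data gave 2.05 with full-length coding transcripts, 2.05 with counts per kb of the longest coding transcript and 4.35 without Col5a3. The 32 detected genes ranged from 22 at 5 TPM to 37 with posterior mean TPM, and were 33 with either library left out. The 3 chains past the threshold became 1 with a summed count of at least 100, 6 with a 1.5-fold minimum, 28 with no minimum fold and 0 with an assumed coefficient of variation of 0.2. Over all genes the 1095 became 462, 2491, 9219 and 244 under these settings. As shares of the genes tested, these were 2.5%, 12.5%, 58.3% and 0% for the chains. For all genes they were 3.48%, 15.7%, 58.3% and 1.54%. With spike-in scaling 3 chains passed, 0 higher and 3 lower in replicate 1, of which 1 was among the 3 with TMM, and 1592 of all genes passed, 289 higher and 1303 lower. The median log2 ratio of basement membrane chains was -0.37 with spike-in scaling. That of fibrillar chains was -0.088 with spike-in scaling, 0.13 as log2(TPM + 1), 0.22 as log2(TPM + 0.1), 0.46 as a mean and 0.17 over chains at 1 TPM or more, a setting chosen after seeing the data. The leading transcript's median share was 86.0% with posterior mean TPM, and 89.0% to 91.5% with a library left out. Over 42 alternative log2 ratios of single genes, 0 reversed and 8 fell below the threshold. Of 22 mean TPM values, 14 moved by more than their SD with full-length transcripts, chosen after seeing the data, and 4 with posterior means. The SD is from 2 libraries and can be very small, so slight shifts are among them. For Col5a3 it was 0.035 TPM, and the mean moved from 108.81 to 108.61 TPM with full-length transcripts. The cause of these shifts was not tested. Genes of few counts, such as Col11a1 and Col6a4, have wide intervals at this depth. No paired analysis was possible because there is 1 group.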
